A study of Mus musculus with 6 samples.

Results

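Transcripts of 10 endothelial marker genes, Pecam1, Cdh5, Tie1, Emcn, Eng, Vwf, Esam, Cldn5, Nos3 and Robo4, were followed in primary mouse calvarial osteoblasts before and after differentiation and during treatment with cabozantinib. The genes were chosen by name, as markers of blood vessel endothelium, and are 10 of the 20659 genes named on the array. Each was found through its RefSeq accession, and they were read by 11 probes, with a second probe for Nos3. Of the 10, 8 had a probe that the scanner software flagged as well above background on 2 or more of the 6 arrays and were tested, while Tie1 and Emcn did not reach that level.

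Cells were grown from the calvaria of CD1 newborn mice aged 2 to 5 days, and RNA from 2 samples of each of 3 conditions was labeled with Cy3 and hybridized to 1-color Agilent arrays. Undifferentiated osteoblasts were grown to confluence in medium with serum. Differentiated osteoblasts were confluent cells kept for 30 days in medium containing ascorbic acid and β-glycerol phosphate. The third group was kept in the same medium for the same 30 days with 100 nM cabozantinib (XL184), a tyrosine kinase inhibitor with high affinity for VEGFR2 and MET. The paper's results name the differentiated cells D24, but the 30 days are what the labels and the array methods state. The cells came from collagenase digestion of whole calvaria with the first digestions discarded, and the sources used here describe no removal of other cell types. The cultures are bulk samples, so that fewer cells of a type and less RNA per cell cannot be told apart.

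Endothelial cells line blood vessels and are held to each other by VE-cadherin, the product of Cdh5, and by PECAM-1, ESAM and claudin-5. They respond to VEGF through receptor kinases, of which VEGFR2, encoded by Kdr, is the main one. Endoglin and the TIE and ROBO4 receptors modulate their signaling, and endothelial nitric oxide synthase and von Willebrand factor are made in large amounts by these cells. Bone is a vascular tissue in which vessels rich in endomucin, the product of Emcn, run beside bone-forming cells. The comparison between treated and untreated cells asks how these transcripts stood in osteoblast cultures when a VEGF receptor inhibitor was present.

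Signals are given on the log2 scale after subtraction of the 75th percentile of the probe signals on each array, so a value of 0 is a spot as bright as that percentile and each unit is a 2-fold step. A gene was called higher or lower when its p value from limma, adjusted over all probes tested, was under 0.05. Values of different genes come from different probes and were not set against each other. Between 58.8% and 72.9% of the spots were well above background on an array, with the cabozantinib arrays at 58.8% and 58.9%, and no spot was saturated. The cabozantinib arrays stand on another slide and scan than the other 4, so slide and treatment cannot be told apart. The median log2 fold change of all genes tested was 0.11 for differentiated against undifferentiated cells, -0.29 for cabozantinib against differentiated cells and -0.35 for cabozantinib against undifferentiated cells, and moved to -0.08 and -0.12 in the last pair of comparisons with quantile normalization.

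Of the 10 marker genes, the undifferentiated arrays had 7 and 9 well above background, each differentiated array had 7 and each cabozantinib array had 6. Among all genes and unnamed probes the shares were 62.5% and 73.5%, 66.4% and 69.0%, and 59.7% and 60.2%. Of 22 other endothelial genes, 16 and 19 were well above background on the undifferentiated arrays, 17 on each differentiated array and 15 on each cabozantinib array. The endothelial receptors Tie1 and Tek were not well above background on any of the 6 arrays, and neither were the transcription factors Erg and Sox18 nor the selectin Sele.

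**Figure D1:**
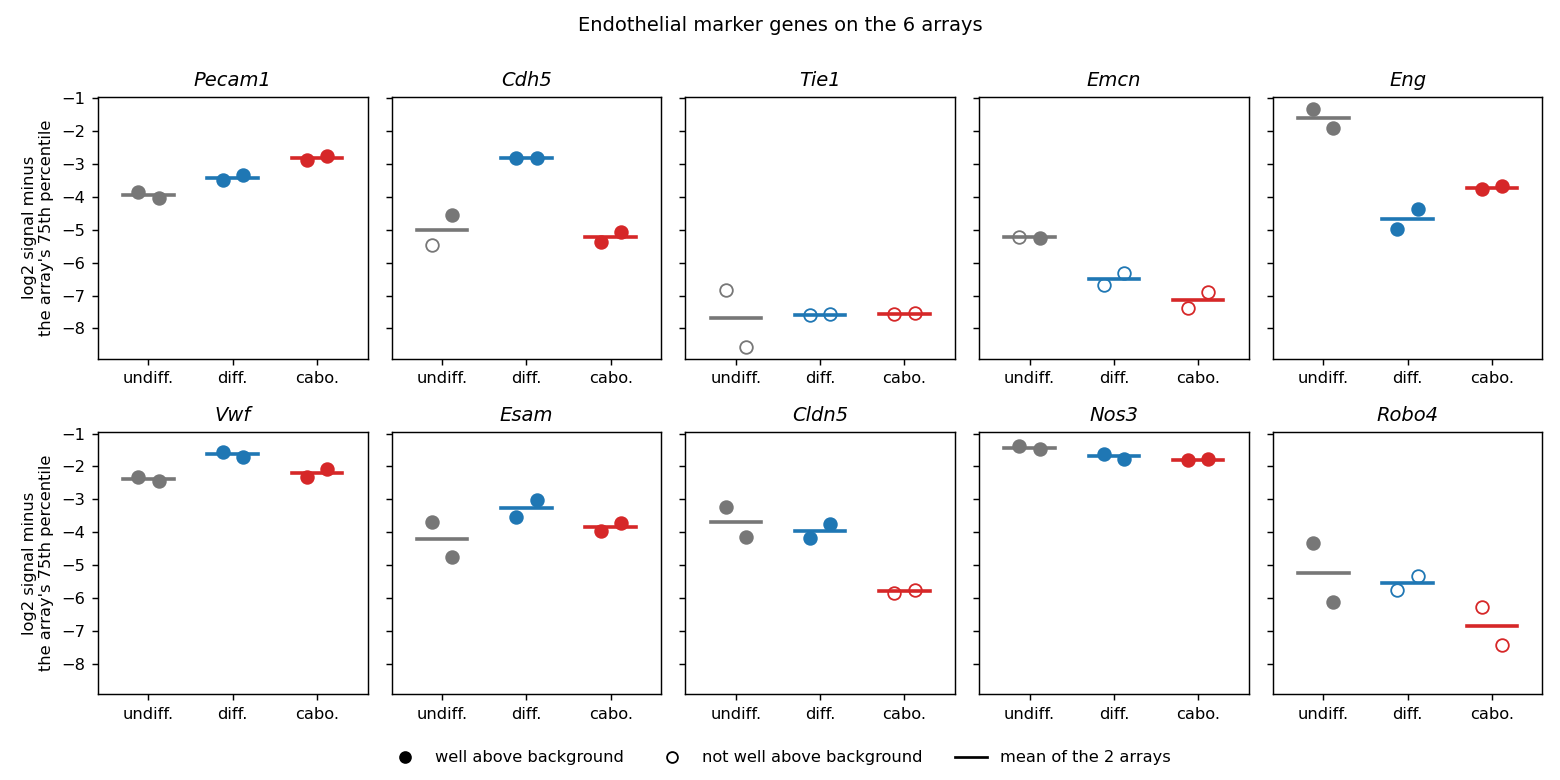
Log2 signal minus the 75th percentile of the array for the 10 marker genes, with 1 point per array, filled where the probe was well above background and open where it was not, and a line at the mean of the 2 arrays. Eng was highest in both undifferentiated arrays, Cdh5 was highest in both differentiated arrays, Cldn5 was not well above background with cabozantinib, and Tie1 was not well above background anywhere.

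RefSeq gives promoter windows on build GRCm38.p6 for 5 of the 10 genes, Tie1, Emcn, Eng, Cldn5 and Robo4. The 250 bases before the start site are shown for Eng and Cldn5, which passed the test in at least 1 comparison, and for Tie1, which was not well above background on any array. Capitals mark GGAAG or its reverse complement CTTCC, the core letters of sites for ETS factors, a family that binds many endothelial promoters, and GGGCGG or CCGCCC, the GC box. The Eng window is chr2:32646345-32646594 on the plus strand, the Cldn5 window is chr16:18776597-18776846 on the plus strand, and the Tie1 window is chr4:118489850-118490099 on the minus strand.
Eng: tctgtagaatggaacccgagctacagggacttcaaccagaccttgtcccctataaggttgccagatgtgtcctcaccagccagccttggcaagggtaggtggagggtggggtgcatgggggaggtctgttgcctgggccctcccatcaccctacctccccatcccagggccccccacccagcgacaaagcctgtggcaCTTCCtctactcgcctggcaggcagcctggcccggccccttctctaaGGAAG
Cldn5: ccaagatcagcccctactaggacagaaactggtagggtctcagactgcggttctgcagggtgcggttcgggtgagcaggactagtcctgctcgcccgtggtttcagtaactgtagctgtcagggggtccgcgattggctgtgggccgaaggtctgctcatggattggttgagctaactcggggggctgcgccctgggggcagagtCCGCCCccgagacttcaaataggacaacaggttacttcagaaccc
Tie1: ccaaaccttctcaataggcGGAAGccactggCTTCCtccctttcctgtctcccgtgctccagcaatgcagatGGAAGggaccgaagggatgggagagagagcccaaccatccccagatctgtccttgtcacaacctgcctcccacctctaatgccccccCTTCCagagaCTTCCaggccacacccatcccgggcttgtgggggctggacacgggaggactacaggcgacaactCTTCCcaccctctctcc
On both strands together, GGAAG was found 2 times in the Eng window, 0 times in that of Cldn5 and 6 times in that of Tie1. The windows of Emcn and Robo4 held it 2 times each. It was present in 64.1% of the 32851 promoter windows of this length. The GC box was found 1 time in the Cldn5 window and in none of the other 4, against 32.7% of all windows, and TATAAA was in none of the 5, against 12.4%. These letters are a description of the windows and not evidence of binding.

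Among the receptors, Eng moved most with differentiation. Eng encodes endoglin, a co-receptor for BMP9 and TGF-β ligands that is high in endothelium and is also present on stromal cells. Its log2 signal was -1.31 and -1.90 in undifferentiated cells, -4.99 and -4.38 in differentiated cells, and -3.76 and -3.68 with cabozantinib. The 3 groups did not overlap, with undifferentiated cells highest and differentiated cells lowest. Eng fell 8.42-fold with differentiation (log2 fold change -3.07, SE 0.52, adjusted p = 0.00520 by limma). It was one of 2 of the 8 markers tested that were called in this comparison, in which 9.71% of all genes were called and 4.44% were called lower. The call was lost without differentiated replicate 1 (log2 fold change -2.64, adjusted p = 0.0534 by limma) and after normexp background correction (log2 fold change -1.90, adjusted p = 0.142).

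With cabozantinib, Eng stood 1.94-fold above differentiated cells and 4.33-fold below undifferentiated cells. The first of these differences did not pass the test (log2 fold change 0.96, 95% interval -0.20 to 2.12, adjusted p = 0.316 by limma). The second did (log2 fold change -2.11, SE 0.52, adjusted p = 0.0287 by limma), in a comparison in which 2 of the 8 markers were called, both lower, against 13.4% of all genes called, 8.72% lower and 4.68% higher. That call was lost with quantile normalization (adjusted p = 0.0766 by limma) and without undifferentiated replicate 1 (adjusted p = 0.0542) or cabozantinib replicates 1 (adjusted p = 0.250) or 2 (adjusted p = 0.252).

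Robo4 encodes a receptor of vascular endothelium that stabilizes vessels. Its log2 signal was -4.32 and -6.13 in undifferentiated cells, where it was well above background on both arrays, -5.77 and -5.31 in differentiated cells, and -6.27 and -7.44 with cabozantinib, where it was not. The undifferentiated arrays lay far apart and spanned those of the differentiated cells. Between undifferentiated and differentiated cells Robo4 had no settled direction (log2 fold change -0.32, adjusted p = 0.912 by limma). That value ran from -1.29 to 0.65 when 1 array was left out. With cabozantinib Robo4 was at least 1.15-fold lower than in undifferentiated cells (adjusted p = 0.0992 by limma), and no difference passed the test. A bound of this kind sets the mean of the measured group against the dim group. In the dim group each array was taken at its lowest signal still well above background or at the probe's own signal where that was higher. The p value beside a bound, here and below, comes from the limma fit to the signals as measured and does not test the bound.

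Tie1, an orphan receptor that works with TIE2 in vessel maturation, lay between -8.55 and -6.84 and was not well above background on any array. Emcn, a sialomucin of venous and bone capillary endothelium, had log2 signals of -5.21 and -5.26 in undifferentiated cells, -6.69 and -6.32 in differentiated cells and -7.38 and -6.90 with cabozantinib. It was well above background only on the second undifferentiated array. With 1 measured array, Emcn was given neither a fold change nor a test.

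Among the junction proteins, Cdh5 and Cldn5 differed between conditions and Pecam1 and Esam did not pass the test. Cdh5, the cadherin of endothelial adherens junctions, had log2 signals of -5.46 and -4.55 in undifferentiated cells, of which only the second array was well above background. It reached -2.83 and -2.83 in differentiated cells and stood at -5.38 and -5.08 with cabozantinib. Both differentiated arrays lay above all 4 others, and the cabozantinib arrays lay between the undifferentiated ones.

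Cdh5 rose 4.53-fold with differentiation (log2 fold change 2.18, SE 0.50, adjusted p = 0.0228 by limma), a size that rests in part on undifferentiated replicate 1, on which it was not well above background. It was the only marker of the 8 called higher in that comparison, against 5.26% of all genes called higher. The call was lost without differentiated replicate 1 (adjusted p = 0.284 by limma) or 2 (adjusted p = 0.0838), and without the filter on dim probes (adjusted p = 0.0652). After normexp correction its log2 fold change was 0.71 (adjusted p = 0.990).

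Cdh5 fell 5.29-fold with cabozantinib against differentiated cells (log2 fold change -2.40, SE 0.50, adjusted p = 0.0473 by limma). It was the only 1 of the 8 markers called, in a comparison in which 2.67% of all genes were called, 2.55% lower and 0.121% higher. This call sits at the edge of the threshold. Its adjusted p by limma was 0.0506 when each array was scaled to the 75th percentile of its spots in place of its probes, and 0.204 with quantile normalization, under which the log2 fold change was -1.73. After normexp correction the log2 fold change was -1.33 and did not pass the test. Leaving out 1 of the 4 arrays compared gave an adjusted p from 0.212 to 0.429 by limma, with log2 fold changes from -2.71 to -2.10. Both comparisons share the differentiated arrays. The Cdh5 signals with cabozantinib lay close to the lowest signals counted as well above background on those arrays, -5.44 and -5.39. Against undifferentiated cells Cdh5 with cabozantinib had a log2 fold change of -0.22 (95% interval -1.35 to 0.90, adjusted p = 0.818 by limma), which turned to 0.65 with quantile normalization and to 0.15 without undifferentiated replicate 2. Since only 1 of the undifferentiated arrays measured Cdh5, this difference has no settled direction.

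Cldn5 encodes claudin-5, the main claudin of endothelial tight junctions. Its log2 signal was -3.24 and -4.13 in undifferentiated cells, -4.16 and -3.76 in differentiated cells, and -5.85 and -5.75 with cabozantinib. It was well above background on all 4 arrays without cabozantinib and on neither array with it. The first 2 groups overlapped (log2 fold change -0.28, 95% interval -1.46 to 0.90, adjusted p = 0.910 by limma), and the sign turned without undifferentiated replicate 1 (0.29) or differentiated replicate 1 (0.12).

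With cabozantinib, Cldn5 was at least 3.33-fold lower than in undifferentiated cells. The fit to the signals as measured passed the test (log2 fold change -2.11, adjusted p = 0.0303 by limma). Against differentiated cells Cldn5 was at least 2.74-fold lower, and the fit did not pass the test (adjusted p = 0.0770 by limma). This second difference passed in the fit without the replicate term (adjusted p = 0.0340 by limma) and with only the 4 arrays compared (adjusted p = 0.0297). The call against undifferentiated cells was lost with quantile normalization (log2 fold change -1.28 in place of -2.11, adjusted p = 0.113 by limma), without undifferentiated replicate 1 (adjusted p = 0.0511), and without cabozantinib replicate 1 (adjusted p = 0.298) or 2 (adjusted p = 0.209).

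Pecam1 encodes the adhesion molecule CD31, which endothelium shares with platelets and many leukocytes. Its log2 signal was -3.85 and -4.04 in undifferentiated cells, -3.50 and -3.35 in differentiated cells and -2.87 and -2.77 with cabozantinib. The 3 groups did not overlap and stood in that order. No step passed the test, with log2 fold changes of 0.52 for differentiation and 0.61 for cabozantinib against differentiated cells. The difference between cabozantinib and undifferentiated cells was 2.18-fold (log2 fold change 1.13, 95% interval 0.04 to 2.21, adjusted p = 0.142 by limma, and 0.0445 without the replicate term).

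Esam, an immunoglobulin-like molecule of endothelial tight junctions and platelets, had log2 signals of -3.70 and -4.74 in undifferentiated cells, -3.53 and -3.02 in differentiated cells, and -3.96 and -3.71 with cabozantinib. Its largest difference was between the first 2 groups (log2 fold change 0.94, 95% interval -0.29 to 2.17, adjusted p = 0.405 by limma), and it passed the test only without undifferentiated replicate 1 (log2 fold change 1.66, adjusted p = 0.0395). The cabozantinib arrays lay within the span of the undifferentiated ones.

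Vwf and Nos3, which encode the secreted von Willebrand factor and endothelial nitric oxide synthase, had signals well above background on every array and passed the test in no comparison. Vwf had log2 signals of -2.31 and -2.45 in undifferentiated cells, -1.55 and -1.72 in differentiated cells, and -2.32 and -2.09 with cabozantinib. Both differentiated arrays were above the other 4, with a log2 fold change of 0.75 over undifferentiated cells (95% interval -0.34 to 1.83, adjusted p = 0.476 by limma) and a difference of -0.57 for cabozantinib against differentiated cells (95% interval -1.66 to 0.52, adjusted p = 0.594).

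The brighter Nos3 probe had log2 signals of -1.39 and -1.46, -1.61 and -1.78, and -1.81 and -1.78 in undifferentiated, differentiated and cabozantinib-treated cells. Its range over the 6 arrays was narrow and its log2 fold changes were -0.27, -0.10 and -0.37, with a 95% interval of -1.18 to 0.97 for cabozantinib against differentiated cells. The second Nos3 probe, between -7.69 and -6.44, was not well above background on any array, so only 1 of the 2 probes gives a level for this gene.

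**Figure D2:**
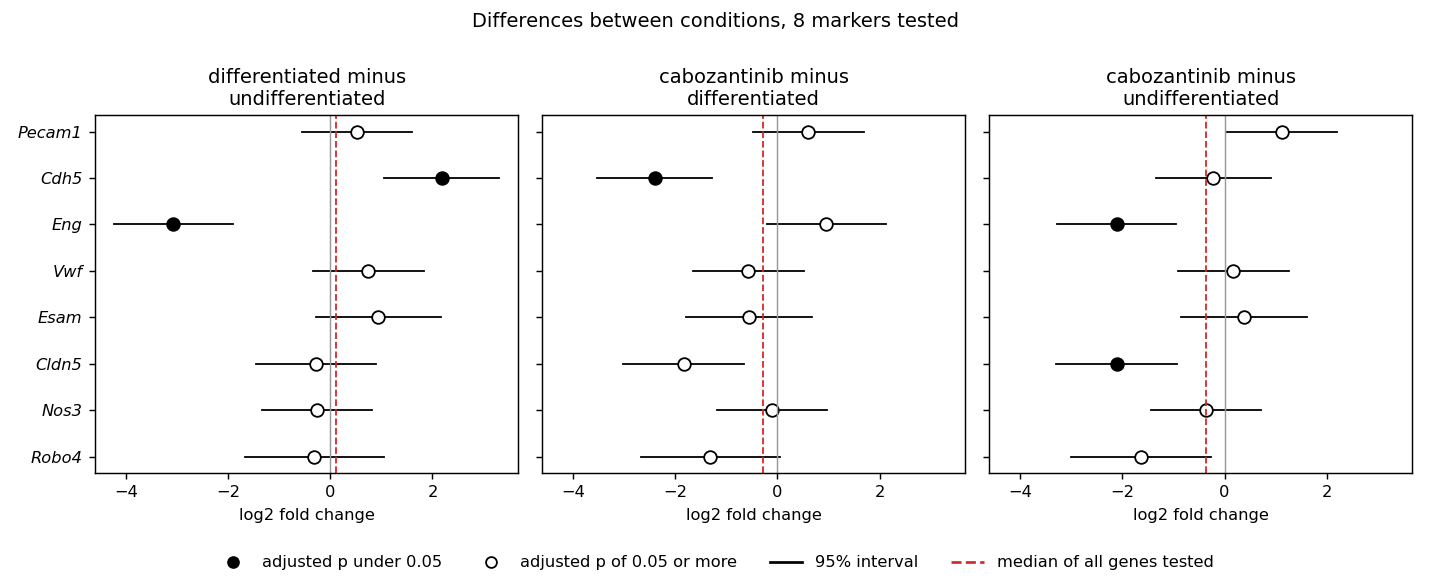
Log2 fold changes of the 8 markers tested, with 95% intervals from limma, filled where the adjusted p was under 0.05, and the median of all genes tested as a broken line. Eng and Cdh5 passed in the first comparison, Cdh5 in the second, and Eng and Cldn5 in the third.

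The direction of the markers was mixed with differentiation. Against differentiated cells 6 of the 8 had negative log2 fold changes with cabozantinib, where 67.8% of all genes did. Both differentiated arrays were above both undifferentiated arrays for 4 of the 8 markers, against 25.9% of all genes, and below them for 2, against 19.4%. Both cabozantinib arrays were below both differentiated arrays for 6 of the 8, Cdh5, Vwf, Esam, Cldn5, Nos3 and Robo4, against 44.1% of all genes, and above them for Pecam1 and Eng, against 13.3%. Against undifferentiated cells the cabozantinib arrays were below for 4, against 43.6%, and above for 1, against 19.7%. The median log2 fold change of the 8 was 0.13 with differentiation, -0.56 for cabozantinib against differentiated cells and -0.30 for cabozantinib against undifferentiated cells. Relative to all genes these medians were 0.02, -0.28 and 0.06. All 8 markers lay below the 75th percentile on every array. On that scale the median probe of an array stood at -3.80 and -3.58 in differentiated cells and -4.39 and -4.33 with cabozantinib. The middle of the array was thus also lower with cabozantinib. With quantile normalization the median of the 8 for cabozantinib against differentiated cells was -0.17, or -0.09 relative to all genes. There 4 markers were lower and 4 higher, where 55.6% of all genes were lower. The 8 are those that passed the filter on dim probes, which leaves out genes at background throughout. Robo4 passed it only through its 2 undifferentiated arrays. Its order between cabozantinib and differentiated cells therefore compares signals that were not well above background.

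A looser rule, unadjusted p under 0.05 and a change of over 2-fold, was met by Cdh5, higher, and Eng, lower, with differentiation, against 10.5% of all genes higher and 9.78% lower. For cabozantinib against differentiated cells it was met by Cdh5 and Cldn5, both lower, against 20.7% of all genes lower, and by no marker that was higher, against 2.71%. For cabozantinib against undifferentiated cells it was met by Pecam1, higher, against 8.12%, and by Eng, Cldn5 and Robo4, lower, against 23.4%. Robo4 was among the genes tested only through the undifferentiated arrays, the higher group of that comparison.

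**Figure D3:**
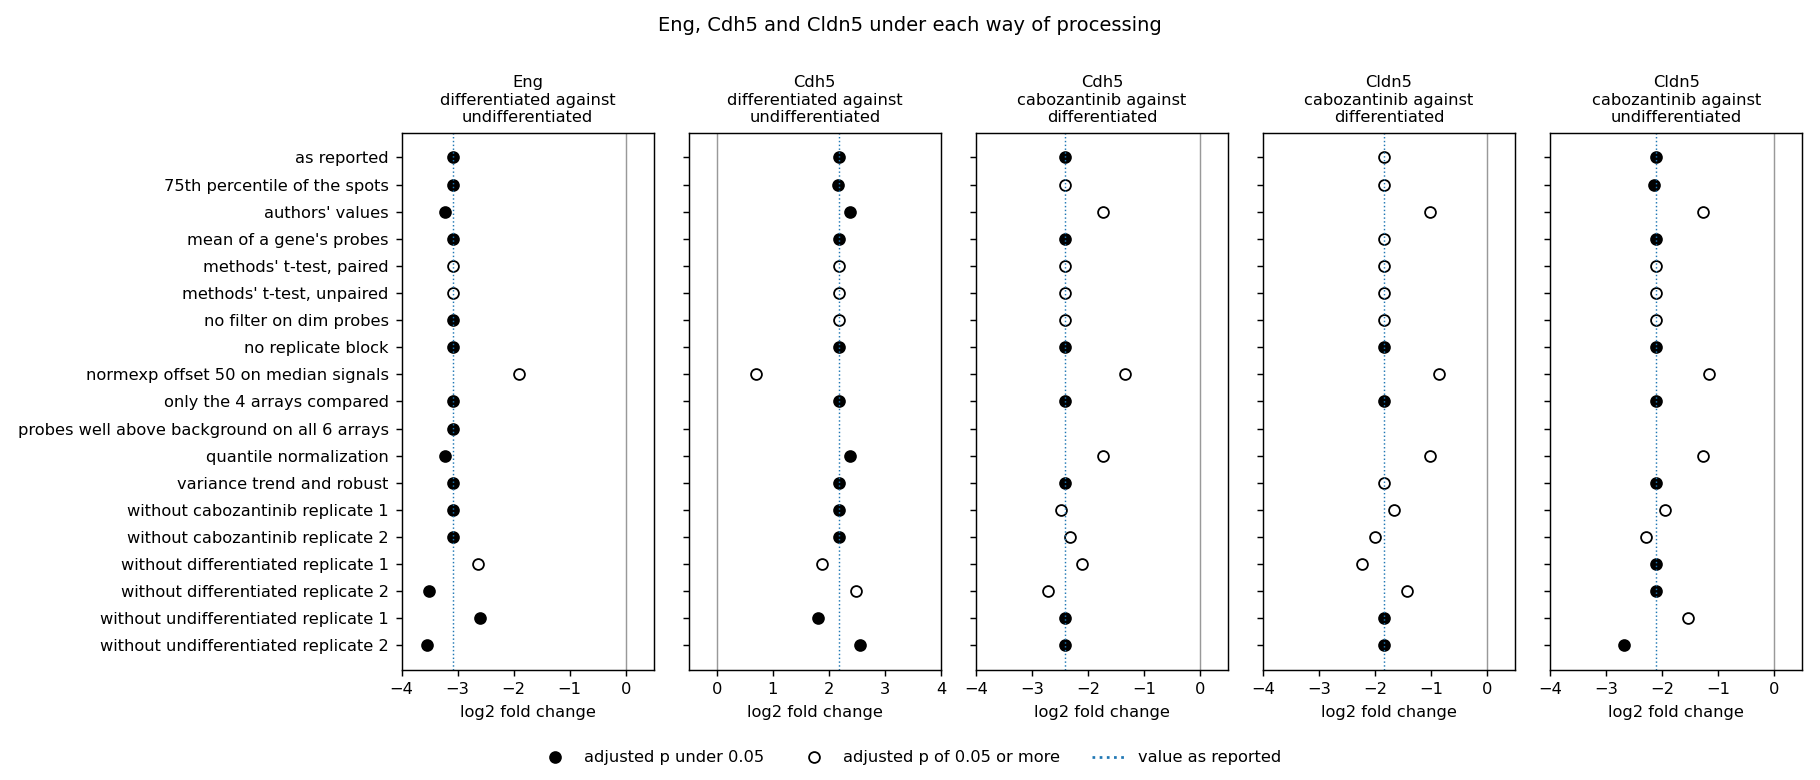
Log2 fold changes of Eng, Cdh5 and Cldn5 as reported and under each other way of processing, with 1 point per setting, filled where the adjusted p was under 0.05. No point crosses 0, and Eng in the first panel has the most filled points, with 14 of 18 alternatives called.

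The 5 markers well above background on all 6 arrays, Pecam1, Eng, Vwf, Esam and Nos3, did not share 1 pattern. Over the 6 arrays, Eng and Vwf had a Pearson correlation of -0.82, Nos3 and Pecam1 one of -0.90, and Vwf and Esam one of 0.76. The genes most like the mean of these 5 were Ogfr (r = 0.999), Etv4 (r = 0.998), Chtf8 (r = 0.997), Rab34 (r = 0.997) and Xpnpep2 (r = 0.996), of 9950 genes compared over 6 arrays. That mean correlated at 0.71 with Eng and at -0.11 with the mean of the other 4. All the points share 3 conditions and 6 arrays, so these values are descriptions.

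Another 22 endothelial genes were set beside the markers, and 17 of them were tested. With differentiation 4 rose, where 5.26% of all genes did, and 0 were called lower, where 4.44% of all genes were. Of the 17, 13 had positive and 4 negative log2 fold changes, where 13253 of all 23077 genes tested had positive ones. By limma 6 had an unadjusted p under 0.05, where 4668 of all genes did. Tal1, a blood and endothelial transcription factor, rose by 3.59 on the log2 scale (adjusted p = 0.00194 by limma). The surface receptor Cd93, found on endothelium and on myeloid cells, rose by 3.36, the scavenger receptor Stab2 by 2.23 and the transcription factor Sox7 by 2.05. The call for Sox7 (adjusted p = 0.0278 by limma) was lost with only the 4 arrays compared (adjusted p = 0.0506). The median of the 17 was 0.86, or 0.75 above the median of all genes.

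Most macrophage markers also had higher signals with differentiation, 6 of the 7 tested, where 13253 of all 23077 genes tested did. Of the 7, 3 were called higher, where 5.26% of all genes were, Adgre1 by 4.04, Tyrobp by 3.13 and Csf1r by 2.84 on the log2 scale. None was called lower, and Lyz2 had a log2 fold change of -1.28. The dimmer Csf1r probes differed little, with means of -1.49 and -5.13 in undifferentiated cells and -1.20 and -5.31 in differentiated cells. Each of the 7 was well above background on each differentiated and cabozantinib array. The signals of the 7, summed relative to the 75th percentile, were 25.1 to 47.3 in undifferentiated cells, 216 to 329 in differentiated cells and 198 to 245 with cabozantinib. The part of macrophages in the values of Pecam1, Cd93, Stab2 and Tal1 was not tested. Megakaryocytes and platelets also hold Vwf, Esam and Pecam1, and their part in those values was not tested either. The summed signals of their markers were 8.63 to 13.2, 7.82 to 12.4 and 7.90 to 9.14 in the same order. Of the 5 tested, 3 had positive and 2 negative log2 fold changes with differentiation. Only the platelet chemokine Ppbp was called, where 4.44% of all genes were called lower. It fell by 4.93, with only 1 of the differentiated arrays well above background. Itga2b was not well above background on any array.

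For cabozantinib against differentiated cells, 14 of the 17 other endothelial genes had negative log2 fold changes, where 67.8% of all genes did, and 14 also did with quantile normalization, where 55.6% of all genes did. Their median was -1.07, or -0.78 relative to all genes, and with quantile normalization -0.72, or -0.64 relative to all genes. Of the 17, 1 was called. Sox17, a transcription factor of arterial endothelium, was well above background on both differentiated arrays, at -4.40 and -4.04, and on neither cabozantinib array, at -6.63 and -6.76. It was at least 2.30-fold lower (adjusted p = 0.0473 by limma, and 0.183 with quantile normalization).

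Other endothelial genes were lower on both cabozantinib arrays without passing the test. The apelin receptor Aplnr stood at -3.83 and -3.31 in differentiated cells and at -6.05 and -5.18 with cabozantinib, where it was not well above background. It was at least 3.34-fold lower than in differentiated cells (adjusted p = 0.0644 by limma). Against undifferentiated cells it was at least 3.25-fold lower, and the fit to the signals as measured passed the test (adjusted p = 0.0388 by limma). Sox7 stood at -0.75 and -0.82 and then at -2.44 and -2.91 (log2 fold change -1.89, adjusted p = 0.0636). P-selectin, encoded by Selp and made by endothelium and platelets, was at -2.77 and -2.61 and then at -4.64 and -4.28 (log2 fold change -1.77, adjusted p = 0.0738). Sox7 thus had the order of Cdh5, highest in differentiated cells, and Selp and Aplnr that of Cldn5, lowest with cabozantinib. Cd93, Tal1 and Stab2 did not show this decrease, with log2 fold changes of -0.31, -0.13 and 0.30 and adjusted p values of 0.857, 0.948 and 0.861 by limma. Egfl7 and Ecscr, well above background on all 6 arrays, did not show it either. Their means were 0.07 and 1.21 in differentiated cells and 0.12 and 1.33 with cabozantinib.

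**Figure D4:**
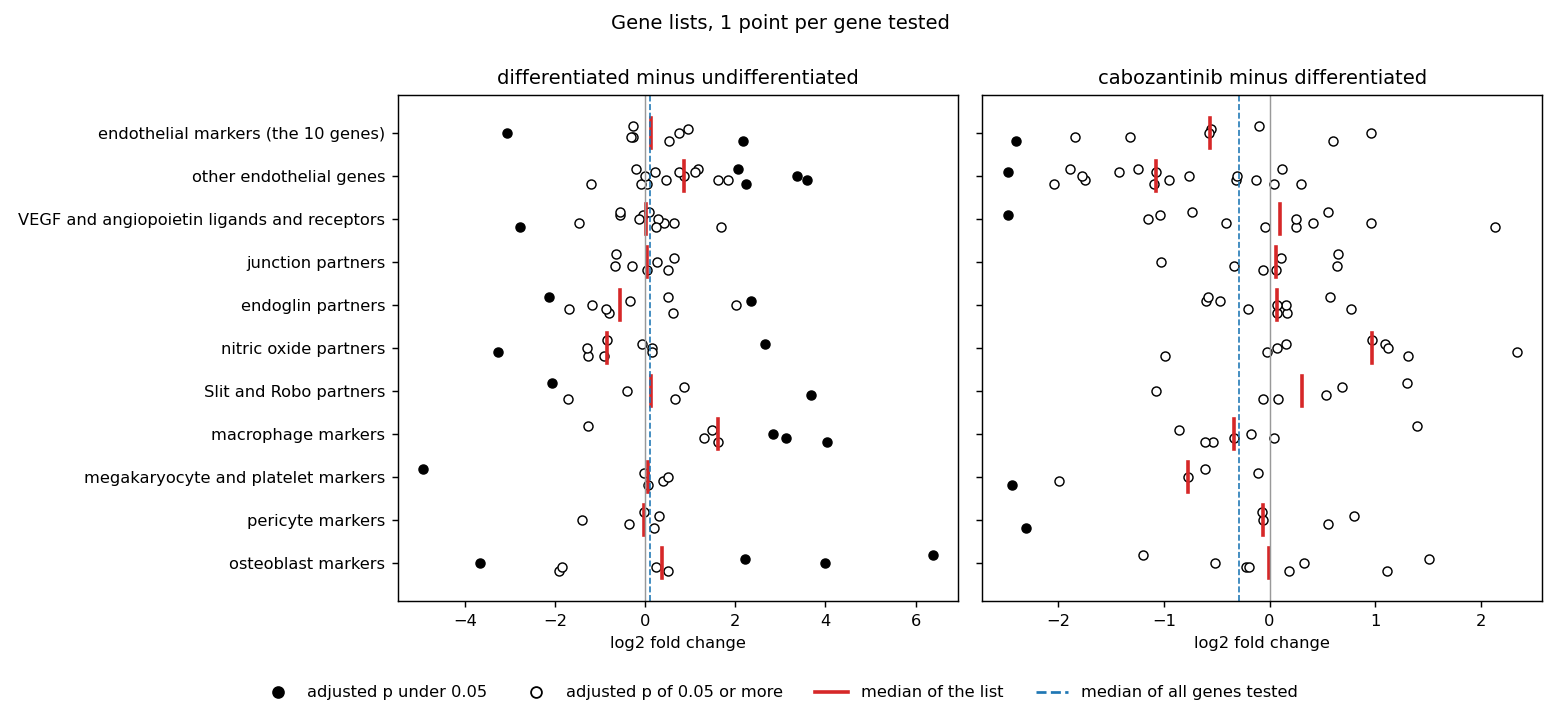
Log2 fold changes of the endothelial markers and of the other gene lists in 2 comparisons, with 1 point per gene tested, filled where the adjusted p was under 0.05, the median of each list as a solid line and that of all genes as a broken line. In the right panel the other endothelial genes lie lowest, with a median of -1.07, and 1 of 17 is filled.

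Of the VEGF and angiopoietin ligands and receptors, 12 of 13 were tested, Nrp1 fell by 2.77 with differentiation with only 1 of the 2 differentiated arrays well above background, and Flt4 was the only 1 called lower with cabozantinib against differentiated cells. Flt4 encodes VEGFR3, the VEGF-C receptor of lymphatic and angiogenic endothelium. It stood at -4.27 and -5.21 in undifferentiated cells, -5.16 and -4.40 in differentiated cells, and -7.39 and -7.13 with cabozantinib, where it was not well above background. It was at least 1.55-fold lower than in differentiated cells (adjusted p = 0.0497 by limma, and 0.201 with quantile normalization) and at least 1.60-fold lower than in undifferentiated cells (adjusted p = 0.0202).

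The 2 probes of Kdr, which encodes VEGFR2, disagreed on differentiation. Both were lower with cabozantinib than in differentiated cells, and neither of these decreases passed the test. The brighter probe did not pass the test, with log2 fold changes of 0.08 for differentiation and -0.73 for cabozantinib against differentiated cells (adjusted p = 0.492 by limma). The dimmer probe stood at -3.14 and -3.06 in undifferentiated cells, -1.48 and -0.95 in differentiated cells and -3.05 and -3.24 with cabozantinib, and rose by 1.89 with differentiation (adjusted p = 0.0395 by limma). Its difference between cabozantinib and differentiated cells was -1.93 (adjusted p = 0.0605). Flt1, which encodes VEGFR1, had log2 fold changes of 0.29 and 0.25 in these comparisons, both short of the test.

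Partner proteins of the markers were read from 3 further lists. Of 7 junction partners tested, catenins and tight junction proteins among them, 0 were called in any of the 3 comparisons by limma. In each, 0 had an unadjusted p under 0.05, where 4668 of 23077, 5401 of 23076 and 7275 of 23080 genes did. Acvrl1, which encodes ALK1, the BMP9 receptor that acts with endoglin in endothelium, had a log2 fold change of 0.61 with differentiation (adjusted p = 0.752 by limma). Among 10 endoglin partners Tgfbr1 rose by 2.34 and the BMP target Id3 fell by 2.14 with differentiation. For cabozantinib against differentiated cells 0 were called by limma, with 0 at an unadjusted p under 0.05, where 5401 of 23076 genes reached it. Cav1, the caveolin that binds nitric oxide synthase, had log2 fold changes of -0.93 and 1.31 in these comparisons, with adjusted p values of 0.348 and 0.148 by limma, and was well above background on 1 of the 2 differentiated arrays.

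Pericyte and osteoblast markers were read as the other cells of the cultures. Of 5 pericyte markers tested, 2 had positive and 3 negative log2 fold changes for cabozantinib against differentiated cells. Their median was -0.06, where that of all genes was -0.29. Only Abcc9 was called, where 2.55% of all genes were called lower, and it was at least 1.50-fold lower (adjusted p = 0.0473 by limma). Rgs5, Kcnj8 and Des were not well above background on any array. Of 8 osteoblast markers tested, Phex rose by 6.38, Dmp1 by 3.99 and Ibsp by 2.20 with differentiation and Spp1 fell by 3.67. For cabozantinib against differentiated cells 0 were called by limma on the brightest probe. There 2 had an unadjusted p under 0.05, where 5401 of 23076 genes did.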

How the data were processed

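Per the file headers, Feature Extraction 11.0.1.1 subtracted the background from the deposited scanner intensities and detrended them. They are in arbitrary units and were not scaled between arrays. The authors also deposited log2 values with nearly equal distributions on the 6 arrays, by steps not given in the sources used here. A gene name was found by RefSeq accession for 69.1% of 39429 probes. Control and outlier spots were removed, spots of a probe averaged after taking log2, and each array scaled by subtracting its 75th percentile.

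The 27232 probes of 23082 genes that were well above background on 2 or more arrays were fitted together over the 6 arrays in limma 3.58.1 (R 4.3.3), with condition and replicate number as terms, since the methods name a paired test. P values were adjusted by Benjamini-Hochberg over the probes tested. The fit left 2 residual degrees of freedom, and pooling added 7.71. The brightest probe stood for each gene. The functions were tested on simulated data. The replicate arrays are not said to be separate isolations, so p values measure only the spread between these samples, which may be technical. With 2 arrays per group their number limits the precision.

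The markers and all lists were chosen with earlier results of these data known. By rule, the genes named are every marker, the called genes of each list (up to the 5 largest changes), Kdr, Flt1, Flt4, Tek, Acvrl1 and Cav1, and the 5 genes most like the mean of the markers. Aplnr, Selp, Egfl7, Ecscr, Lyz2 and the list genes named only as not well above background fall outside the rule. They were named after their values were seen. The lists also hold genes of nitric oxide and Slit and Robo signaling. Alternatives were quantile normalization, the authors' values, a normexp correction with offset 50, other filters, the fit without the replicate term, a variance trend, only the arrays compared, the methods' t-test, averaged probes for each gene, and each array left out. Python 3.11.15, pandas 2.3.3 and matplotlib 3.10.9 were used.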

Additional observations from a re-analysis of the deposited data

How the results depend on the processing

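For differentiated against undifferentiated cells, the 2 markers called became 1 without the filter on dim probes or with the filter set to all 6 arrays, 0 after normexp correction, and 0 to 3 when 1 array was left out (0 without differentiated replicate 1, 1 without differentiated replicate 2, 3 without undifferentiated replicate 1). For cabozantinib against differentiated cells, the 1 call became 0 with the 75th percentile of the spots, the authors' values, quantile normalization, normexp correction, no filter or the filter on all 6 arrays. It became 2 with only the 4 arrays compared, and ranged from 0 (without any 1 of the 4 arrays compared) to 2 when 1 array was left out. For cabozantinib against undifferentiated cells, the 2 calls became 1 with the filter on all 6 arrays, 0 with the authors' values, quantile normalization, normexp correction or no filter, and 0 to 2 when 1 array was left out, with 0 without undifferentiated replicate 1 or either cabozantinib array. Where limma called 0, an unadjusted p under 0.05 was reached by 4 markers with quantile normalization in each cabozantinib comparison. Of all genes, 4026 of 23076 reached it against differentiated cells and 5720 of 23080 against undifferentiated cells. In each of these comparisons 4 of the 8 markers had positive and 4 had negative log2 fold changes. Of all genes, 55.6% and 55.8% had negative ones. The normexp correction and the 75th percentile of the spots were chosen after seeing the data. The first used median signals because the scanner files hold no mean signal.

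The methods' t-test, paired or unpaired, called 0 markers and 0 genes of the other lists in every comparison after Benjamini-Hochberg adjustment. At over 2-fold with p under 0.05 before adjustment, the paired form gave 0, 1 and 0 markers and the unpaired form 2, 2 and 3, for differentiation, cabozantinib against differentiated and cabozantinib against undifferentiated cells. By p alone, the paired form gave 1, 2 and 0 of the 8 markers and 1290, 3846 and 1786 of all genes. The unpaired form gave 4, 3 and 4 markers and 3383, 4896 and 5285 of all genes. The genes tested numbered 23054, 23053 and 23067.

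In the other lists, 86 genes were tested, and 19, 4 and 25 were called in the 3 comparisons in that order. Of all genes, 9.71%, 2.67% and 13.4% were called. The counts of the other lists became 10, 0 and 8 after normexp correction and 11, 0 and 12 with no filter, where 99 of their genes were tested. Quantile normalization and the authors' values gave 0 and 15 in the cabozantinib comparisons. For cabozantinib against differentiated cells, the 75th percentile of the spots and the filter on all 6 arrays gave 0, the variance trend 2 and the 4 arrays alone 20. Leaving out 1 array gave 11 to 30, 0 to 20 and 9 to 36. Over all genes, the 616 called for cabozantinib against differentiated cells became 1 with the 75th percentile of the spots, 0 with quantile normalization (4026 at an unadjusted p under 0.05), 0 after normexp correction and 5539 with the 4 arrays alone. The 2240 called with differentiation became 673 after normexp correction and the 3093 called for cabozantinib against undifferentiated cells became 464.

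Without the replicate block, the calls were 2, 2 and 3 markers, 24, 11 and 27 genes of the other lists, and 3095, 2948 and 5571 of all genes. The numbers share a name and were not shown to pair the arrays, since the deviations of same-numbered arrays correlated at -0.51 for undifferentiated and differentiated, -0.53 for undifferentiated and cabozantinib, and 0.26 for differentiated and cabozantinib arrays.

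Signs turned in uncalled differences. With the authors' values and with quantile normalization, the log2 fold changes for cabozantinib against differentiated cells were 0.0071 and 0.0036 for Esam and 0.062 and 0.058 for Nos3, and Cdh5 against undifferentiated cells was 0.65 in both. After normexp correction, Esam and Vwf against undifferentiated cells were -0.19 and -0.032. With 1 array left out, the values for cabozantinib against undifferentiated cells ranged from -0.60 to 0.15 for Cdh5, -0.33 to 1.098 for Esam and -0.019 to 0.37 for Vwf, and those with differentiation from -0.85 to 0.29 for Cldn5 and -1.29 to 0.65 for Robo4. The causes were not tested.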

Other observations

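Of 9 nitric oxide partners tested, Gucy1a1, a subunit of the nitric oxide receptor guanylate cyclase, rose by 2.66 on the log2 scale with differentiation (adjusted p = 0.00796 by limma), and Ddah1, which degrades an inhibitor of nitric oxide synthases, fell by 3.27 (adjusted p = 0.00610), the latter with the same direction in both of its probes. The inducible synthase Nos2 was lower with cabozantinib than in undifferentiated cells (log2 fold change -2.26, adjusted p = 0.0238 by limma), and Nos1 was not well above background on any array. The median of the 9 was 0.97 for cabozantinib against differentiated cells, where that of all genes was -0.29. In that comparison 0 of the 9 were called by limma, and 2 had an unadjusted p under 0.05, where 5401 of 23076 genes did.

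Of 6 Slit and Robo genes, Robo2 rose by 3.68 with differentiation (adjusted p = 0.00177 by limma) and Slit3, a secreted ligand of Robo receptors, fell by 2.07 (adjusted p = 0.0266). Against undifferentiated cells Robo2 was 4.22 higher with cabozantinib on the log2 scale (adjusted p = 0.00137). Among the megakaryocyte and platelet markers, the receptor subunit Gp1ba was at least 1.54-fold lower with cabozantinib than in differentiated cells (adjusted p = 0.0487 by limma). Against undifferentiated cells, the TIE2 ligand Angpt1 was 1.94 higher with cabozantinib on the log2 scale (adjusted p = 0.0307 by limma). The osteoblast factor Sp7 fell by 2.04 in the same comparison (adjusted p = 0.0410 by limma), with 1 of the 2 cabozantinib arrays well above background. The ALK1 ligand Gdf2 was called higher (adjusted p = 0.0397 by limma), with 1 cabozantinib array and 0 undifferentiated arrays well above background, so no fold is given.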
